A study of Mus musculus with 59 samples.

Results

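Surface molecules that B cells gain or lose as they mature (CD93, CD24, Kit, IL-7 receptor α, CXCR4, CCR7, CD21/CD35, CD23 and CD20) were followed at the mRNA level, as the 9 genes *Cd93*, *Cd24a*, *Kit*, *Il7r*, *Cxcr4*, *Ccr7*, *Cr2*, *Fcer2a* and *Ms4a1* out of 24728 genes with a value in every mRNA library. They were taken by name as markers of the progenitor, immature and mature stages and of homing, not by a threshold on their values. mRNA was sequenced from immature B cells of mouse bone marrow, which had been sorted directly from the animal as B220+IgM+IgD- cells carrying the IgMb allotype, in 5 of the 59 samples of the series. Of these, 2 libraries came from cells labelled *Igh* Δ890/+ and 3 from cells labelled *Igh* P4V/P4V, and no other treatment, time point or age is given for them. The Δ890 allele lacks an 890-kb distal piece of the immunoglobulin heavy-chain locus with its VH genes. The P4V allele carries the same deletion, with the PAIR4 element and its neighbouring V8.7E element placed back at the deletion point, so that the deletion is shared by both groups. The study describes both groups as coming from heterozygous mice, with the mutant allele of C57BL/6 origin giving IgMb and a 129/Sv allele giving IgMa, but once names the P4V cells as homozygous, as the labels do. The difference was not resolved, and these libraries are called *Igh* P4V here. The Δ890 deletion was made by Cre recombinase in mice whose locus had been given lox sites in embryonic stem cells, and the P4V insertion was made in stem cells that carried the deletion. The study calls the libraries independent experiments. Neither the study nor the labels say whether each library came from its own mouse, so that p-values measure only the spread between these samples.

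B cells are made in the bone marrow in ordered steps. Progenitors respond to stem cell factor through Kit and to interleukin-7 through its receptor, and they are held near stromal cells by CXCR4. Immature B cells, which bear IgM for the first time, carry high CD24 and CD93, and on leaving the marrow they lose CD93 and gain IgD, CD21, CD23 and the lymph node homing receptor CCR7. The comparison of the 2 genotypes asks at which stage the sorted cells stood and whether that stage differed.

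None of the 9 stage markers passed the limma test (adjusted p under 0.05) between *Igh* P4V and *Igh* Δ890/+ immature B cells, where 0.00856% of the 11681 genes tested did so. All 9 had a mean of at least 1 TPM over the 5 libraries, the filter for testing. On the scale of log2(TPM + 1) the 95% interval of the difference stayed within 1 log2 unit in either direction for all 9 genes, a bound that for *Kit* depends on the pseudocount of 1. The cells had very high *Cd24a*, clear *Cd93*, low *Il7r* and *Cr2* and almost no *Kit*. The TPM value (transcript abundance relative to all transcripts) of a gene is its read count divided by transcript length and scaled so that every library has the same sum, so that levels can be compared between genes. Fewer cells of a type and less RNA per cell cannot be told apart in these bulk libraries.

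**Figure D1:**
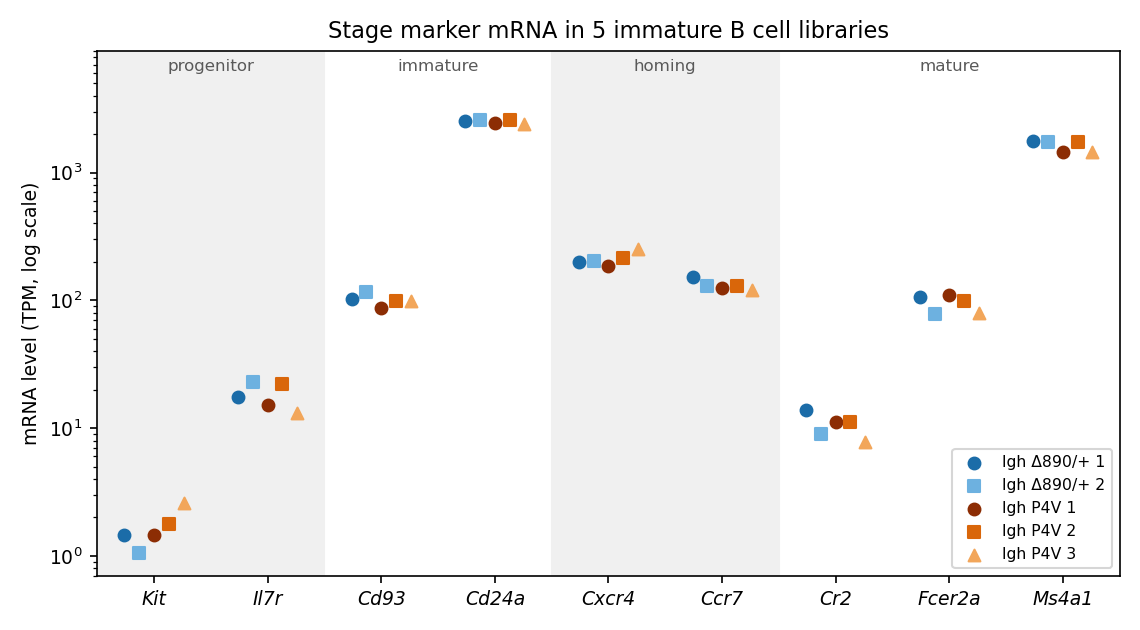
TPM (log axis) of the 9 stage markers in each of the 5 libraries, 1 point per library, with blue for *Igh* Δ890/+ and brown or orange for *Igh* P4V. The genes keep their rank except for *Cd93* and *Fcer2a*, whose points overlap near 100 TPM, and *Kit* lies lowest, between 1.04 and 2.62 TPM.

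In the GENCODE vM1 annotation of build NCBIM37 the genes lie at chr5:75970941-76052747 (*Kit*), chr15:9435916-9459631 (*Il7r*), chr2:148262376-148269299 (*Cd93*), chr10:43298975-43304068 (*Cd24a*), chr1:130484776-130488870 (*Cxcr4*), chr11:99005510-99016391 (*Ccr7*), chr1:196963005-197002909 (*Cr2*), chr8:3681737-3694174 (*Fcer2a*) and chr19:11324654-11340669 (*Ms4a1*).

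The levels of the 9 genes spanned from 1.04 to 2591 TPM. In the order of their means over the 5 libraries they were *Cd24a* (2511 TPM), *Ms4a1* (1629), *Cxcr4* (212), *Ccr7* (132), *Cd93* (101), *Fcer2a* (94.6), *Il7r* (18.1), *Cr2* (10.6) and *Kit* (1.67). *Cd24a* was higher than 99.7% of the genes tested and *Kit* higher than 6.07% of them. The ranges of neighbours in this order did not overlap, apart from 2 pairs. *Cd93* lay above *Fcer2a* in 3 of 5 libraries, and *Il7r* lay above *Cr2* in all 5 although their ranges over libraries overlapped.

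Among the progenitor markers, *Kit* encodes the receptor for stem cell factor, which marks stem cells, early progenitors and mast cells. *Kit* was at 1.45 and 1.04 TPM in *Igh* Δ890/+ cells and at 1.46, 1.78 and 2.62 TPM in *Igh* P4V cells. All 3 *Igh* P4V libraries lay above both *Igh* Δ890/+ libraries, the nearest pair being almost equal, and the third *Igh* P4V library stood above the rest. The values rested on 85, 64, 91, 116 and 169 reads, recovered from the steps of the TPM values. The Poisson 95% intervals, which cover counting error only, ran from 1.16 to 1.79 TPM in *Igh* Δ890/+ library 1 and from 1.17 to 1.79 TPM in *Igh* P4V library 1, so that the gap between these nearest libraries was within counting error.

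The mean level of *Kit* was 1.25 ± 0.28 TPM (SD, n = 2) in *Igh* Δ890/+ and 1.95 ± 0.60 TPM (SD, n = 3) in *Igh* P4V cells. The log2 difference of TPM + 1 was 0.38 (SE 0.20, 95% interval from -0.10 to 0.87), with an adjusted p of 0.893 in the limma fit across all genes. On this scale the pseudocount of 1 shrinks the difference of so low a gene, and with limma-voom on the recovered reads, an alternative chosen after seeing the data, it was 0.65 (SE 0.30, adjusted p = 0.969). With a pseudocount of 0.1 it was 0.59 (SE 0.31), and with either alternative a difference above 1 log2 unit lay within reach of the error. Of all genes tested, 6.94% had every *Igh* P4V library above every *Igh* Δ890/+ library, and *Kit* was the only 1 of the 9 markers to do so.

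*Kit* was highest in the library that also held the most granulocyte mRNA. The summed level of 8 granulocyte genes was 10794 TPM in *Igh* P4V library 3, against 4108 to 5510 TPM in the other 4 libraries, and all 8 genes were highest there. *S100a9*, a calcium-binding protein abundant in neutrophils, was at 3152 TPM in that library and between 661 and 1402 TPM in the others. *Ngp*, a granule protein, was at 2391 TPM against 971 to 1240 TPM, and *S100a8*, the partner of *S100a9*, at 1752 TPM against 622 to 992 TPM.

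Other blood lineages in which *Kit* is used did not all follow it. Of 5 mast cell and basophil genes, the basophil protease *Mcpt8* was the only 1 that was highest in *Igh* P4V library 3, at 14.7 TPM against 7.51 to 10.3 TPM, and 3 of the 5 were highest in *Igh* Δ890/+ library 1. The summed level of the 5, which was 18.8 TPM in *Igh* P4V library 3 against 11.6 to 14.7 TPM, followed *Mcpt8*. The stem and progenitor list was lowest there (23.3 TPM against 29.1 to 57.9 TPM), with *Ly6a* as its main contributor, although *Cd34* was at 1.53 TPM against 0.98 to 1.38 TPM. The erythroid regulator *Klf1* was at 34.3 TPM in that library against 20.5 to 28.5 TPM. The summed level of 5 platelet and megakaryocyte genes was 22.0 TPM there against 11.8 to 17.7 TPM. Of these 5, 3 were highest in that library, 1 in *Igh* Δ890/+ library 2 and 1 in *Igh* P4V library 2. The part of these cells in the *Kit* values was not tested. Without *Igh* P4V library 3 the log2 difference of *Kit* was 0.23, and without *Igh* Δ890/+ library 2 it was 0.25.

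*Il7r*, which encodes the α chain of the interleukin-7 receptor and is shut down after the pre-B stage, was at 17.5 and 23.0 TPM in *Igh* Δ890/+ and at 15.1, 22.0 and 13.1 TPM in *Igh* P4V cells. The groups overlapped, with *Igh* Δ890/+ library 2 and *Igh* P4V library 2 high and *Igh* P4V library 3 low. The mean was 20.3 ± 3.9 TPM (SD, n = 2) against 16.7 ± 4.7 TPM (SD, n = 3), and the log2 difference was -0.28 (SE 0.22, 95% interval from -0.80 to 0.24, limma adjusted p = 0.893). Leaving out 1 library moved it from -0.09 (without *Igh* Δ890/+ library 2) to -0.48 (without *Igh* P4V library 2, unadjusted limma p = 0.025), with -0.47 without *Igh* Δ890/+ library 1 and -0.13 without *Igh* P4V library 3. The residual SD of *Il7r* within the genotypes was larger than that of *Kit*, and only 5.16% of the genes tested varied more.

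Other progenitor and pre-B genes marked the same pair of libraries in different ways. Of 11 listed genes none passed the test, and their median log2 difference was 0.13, beside -0.03 for all genes tested. That median rested on 1 library, being 0.0029 without *Igh* P4V library 2, and it was 0.061 without *Igh* Δ890/+ library 2 and 0.20 without library 1. *Igh* P4V library 2 held the highest level of 6 of the 11. *Igll1*, a surrogate light-chain gene of pro-B and early pre-B cells, was at 73.8 TPM there and between 17.97 and 19.8 TPM in the other libraries, 3.91 times their mean. *Dntt*, the terminal transferase of pro-B cells, was at 24.8 TPM against 7.20 to 9.06 TPM, and the 8 proliferation genes were all highest in that library, as were 17.98% of all genes tested. Between the genotypes none of these 8 passed the test, and their median log2 difference was 0.32, or 0.20 without that library. Of the 8, 4 had an unadjusted limma p under 0.05 (4.47% of all genes tested), and 4 had every *Igh* P4V library above both *Igh* Δ890/+ libraries (6.94% of all genes tested).

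In *Igh* Δ890/+ library 2, which had the highest *Il7r*, *Igll1* was at 19.3 TPM and *Dntt* at 9.06 TPM, far below *Igh* P4V library 2. The 4 list members that peaked there were *Rag1*, *Rag2*, *Il2ra* and *Bst1*. *Rag1*, a subunit of the V(D)J recombinase, was at 16.98 TPM there and from 9.99 to 12.8 TPM elsewhere. *Il2ra*, the CD25 antigen of pre-B cells, was at 29.1 TPM there and from 19.9 to 24.0 TPM elsewhere. The 2 libraries with high *Il7r* differed in *Igll1*, and *Kit* was lowest in one of them and second highest in the other.

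Of the markers of the immature stage, *Cd93* encodes the transmembrane protein recognised by the AA4.1 antibody, which is lost on full maturation. *Cd93* was at 103 and 116 TPM in *Igh* Δ890/+ and at 87.6, 98.8 and 99.0 TPM in *Igh* P4V cells. All 3 *Igh* P4V libraries lay below both *Igh* Δ890/+ libraries. The same held for 16.2% of all genes tested, and *Cd93* was the only 1 of the 9 markers for which it did. The mean was 109 ± 8.7 TPM (SD, n = 2) against 95.1 ± 6.5 TPM (SD, n = 3), a log2 difference of -0.20 (SE 0.09, 95% interval from -0.41 to 0.00) with an unadjusted limma p of 0.053 and an adjusted p of 0.893. The difference was -0.12 without *Igh* Δ890/+ library 2. Of all genes tested, 4.47% had an unadjusted p under 0.05, and none of the 9 markers did in this fit or with limma-voom. The unadjusted limma p of *Cd93* was 0.049 with immunoglobulin genes removed, 0.047 without *Igh* Δ890/+ library 1 and 0.045 without *Igh* P4V library 3.

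*Cd24a*, the heat-stable antigen carried by immature B cells, varied least of the 9. It was at 2542 and 2591 TPM in *Igh* Δ890/+ and at 2453, 2574 and 2393 TPM in *Igh* P4V cells. The groups overlapped, and the highest library exceeded the lowest 1.08-fold. The mean was 2566 ± 35 TPM (SD, n = 2) against 2474 ± 92 TPM (SD, n = 3), with a log2 difference of -0.05 (SE 0.07, 95% interval from -0.23 to 0.12, limma adjusted p = 0.934). The difference was -0.083 without *Igh* P4V library 2 and -0.030 without library 3. *Cd24a* was read 52355 to 58744 times per library, and 90.5% of the genes tested had a larger residual SD.

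The ratio of *Cd93* to *Fcer2a*, both in TPM, sets a marker that B cells lose on maturation beside one that they gain. It was 0.96 and 1.47 in *Igh* Δ890/+ and 0.80, 1.01 and 1.24 in *Igh* P4V cells. The ranges overlapped, and the 2 *Igh* Δ890/+ values enclosed 2 of the 3 *Igh* P4V values. The ratio of *Cd24a* to *Ms4a1* ran from 1.43 to 1.70 over the 5 libraries.

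**Figure D2:**
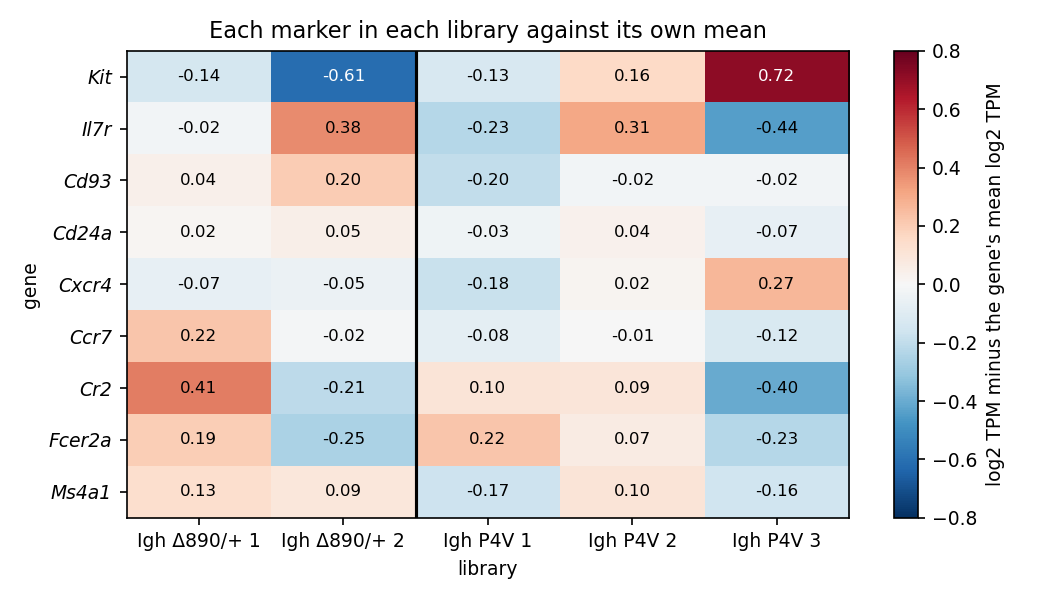
Log2 TPM of each stage marker in each library minus the mean log2 TPM of that gene over the 5 libraries, with red above and blue below the mean and a vertical line between the genotypes. *Cr2* and *Fcer2a* are both below their means in *Igh* Δ890/+ library 2 and *Igh* P4V library 3, and *Kit* is most above its mean (0.72) in the latter.

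The homing receptors point in opposite directions during maturation. *Cxcr4* encodes the receptor for CXCL12 that retains B-lineage cells in the marrow. *Cxcr4* was at 201 and 203 TPM in *Igh* Δ890/+ and at 186, 214 and 254 TPM in *Igh* P4V cells. The 2 *Igh* Δ890/+ values lay inside the *Igh* P4V range, which was set by a low library 1 and a high library 3. The mean was 202 ± 1.6 TPM (SD, n = 2) against 218 ± 34 TPM (SD, n = 3), and the log2 difference was 0.10 (SE 0.12, 95% interval from -0.20 to 0.39, limma adjusted p = 0.930).

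Without *Igh* P4V library 3 the estimate for *Cxcr4* was -0.020. That library held the most granulocyte mRNA, as above, and *Cxcr4* is also used by granulocytes and their precursors. It was also highest for 5 of 9 immediate early and stress response genes, whose summed level was 1184 TPM there against 727 to 944 TPM in the other libraries. The part of either in the *Cxcr4* value was not tested. None of the 8 of these genes that could be tested passed the test, and 5 had an unadjusted p under 0.05, as had 4.47% of all genes tested. Their median log2 difference was 0.58, and 6 of the 8 had all *Igh* P4V libraries above both *Igh* Δ890/+ libraries, as had 6.94% of all genes tested. *Junb* was the most abundant, at 282 and 272 TPM in *Igh* Δ890/+ and 310, 298 and 385 TPM in *Igh* P4V cells.

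*Ccr7*, the receptor for CCL19 and CCL21 that brings B cells to lymph nodes, was at 153 and 130 TPM in *Igh* Δ890/+ and at 125, 131 and 121 TPM in *Igh* P4V cells. *Igh* Δ890/+ library 1 stood above the other 4, and the groups overlapped. The mean was 141 ± 17 TPM (SD, n = 2) against 125 ± 5.1 TPM (SD, n = 3), a log2 difference of -0.17 (SE 0.09, 95% interval from -0.38 to 0.04, limma adjusted p = 0.893). Its size rested on the *Igh* Δ890/+ libraries, with -0.050 without library 1 and -0.29 without library 2 (unadjusted limma p = 0.026). The ratio of *Cxcr4* to *Ccr7* in TPM was 1.31 and 1.57 in *Igh* Δ890/+ and 1.49, 1.64 and 2.10 in *Igh* P4V cells, so that the retention receptor was the more abundant mRNA in every library.

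None of the 16 other homing genes tested, out of 17 listed, passed the test, and their median log2 difference was -0.12. It was -0.033 without *Igh* Δ890/+ library 1, -0.071 without *Igh* P4V library 3 and -0.19 without either *Igh* Δ890/+ library 2 or *Igh* P4V library 1. The 3 most abundant were *Rgs2*, a regulator of G protein signalling (153 to 213 TPM), *Itgb2*, the integrin β2 chain (180 to 199 TPM), and *Selplg*, the P-selectin ligand (166 to 204 TPM). Of the 17, 13 were lowest in *Igh* P4V library 3, as were 33.6% of all genes tested. *Ccr7* was lowest there too, whereas *Cxcr4* was highest.

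Of the mature B cell markers, *Cr2* encodes the complement receptors CD21 and CD35, and *Fcer2a* encodes CD23, the low-affinity receptor for IgE. Their upstream sequences are shown because the pair varied together between libraries of the same genotype, a choice made after these values were seen. A shared regulation of the pair was not tested. RefSeq promoters on build GRCm38.p6 were matched for 5 of the 9 markers (*Kit*, *Il7r*, *Cxcr4*, *Cr2* and *Fcer2a*), and the 250 bases before the start were read 5′ to 3′ along the gene's strand. For *Cr2* they lie at chr1:195176720-195176969 (minus strand), and for *Fcer2a*, the outermost of 3 listed starts, at chr8:3694175-3694424 (minus strand). Capitals mark any match, on either strand, to CAGGTG (an E-box letter run), TATAAA or GAGGAA.
Cr2: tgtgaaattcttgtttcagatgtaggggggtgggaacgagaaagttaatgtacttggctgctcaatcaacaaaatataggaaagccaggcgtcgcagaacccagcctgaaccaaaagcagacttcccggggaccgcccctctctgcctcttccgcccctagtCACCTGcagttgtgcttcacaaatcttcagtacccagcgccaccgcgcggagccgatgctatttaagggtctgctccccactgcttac
Fcer2a: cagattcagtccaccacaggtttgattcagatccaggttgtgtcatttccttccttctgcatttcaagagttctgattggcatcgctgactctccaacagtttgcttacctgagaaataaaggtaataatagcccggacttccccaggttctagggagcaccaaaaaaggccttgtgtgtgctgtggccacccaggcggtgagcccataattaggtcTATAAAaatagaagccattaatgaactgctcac
The *Cr2* window held CAGGTG once, as its reverse complement CACCTG, starting 88 bases before the start, and 17.1% of all 27025 promoters of the same length held it. The *Fcer2a* window held TATAAA once, 33 bases before the start, and 12.97% of all promoters held it. The third run, GAGGAA, was in neither window and in 23.1% of all promoters. None of these 3 runs was in both windows, other runs were not searched, and a match is a description of the letters only.

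*Cr2* was at 13.8 and 8.98 TPM in *Igh* Δ890/+ and at 11.2, 11.1 and 7.86 TPM in *Igh* P4V cells. The groups overlapped, and *Igh* Δ890/+ library 1 was 1.54 times library 2. The mean was 11.4 ± 3.4 TPM (SD, n = 2) against 10.03 ± 1.9 TPM (SD, n = 3), a log2 difference of -0.15 (SE 0.21, 95% interval from -0.66 to 0.35, limma adjusted p = 0.934). Its sign rested on 1 library, with 0.13 when *Igh* Δ890/+ library 1 was left out.

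*Fcer2a* was at 107 and 78.6 TPM in *Igh* Δ890/+ and at 109, 98.1 and 79.8 TPM in *Igh* P4V cells. Here too the low libraries were *Igh* Δ890/+ library 2 and *Igh* P4V library 3, and the groups overlapped almost fully. The mean was 92.9 ± 20 TPM (SD, n = 2) against 95.7 ± 15 TPM (SD, n = 3), a log2 difference of 0.05 (SE 0.17, 95% interval from -0.35 to 0.45, limma adjusted p = 0.971). The estimate was -0.17 without *Igh* Δ890/+ library 2 and -0.05 without *Igh* P4V library 1. *Fcer2a* mRNA was 7.77 to 10.2 times as abundant as *Cr2* mRNA in each library.

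*Ms4a1* encodes CD20, which appears at the pre-B stage and stays through maturity. It was at 1778 and 1730 TPM in *Igh* Δ890/+ and at 1445, 1740 and 1450 TPM in *Igh* P4V cells. *Igh* P4V libraries 1 and 3 were low, and library 2 fell between the 2 *Igh* Δ890/+ values. The mean was 1754 ± 34 TPM (SD, n = 2) against 1545 ± 169 TPM (SD, n = 3), a log2 difference of -0.19 (SE 0.10, 95% interval from -0.43 to 0.05, limma adjusted p = 0.893), and without *Igh* P4V library 2 it was -0.28 with an unadjusted p of 0.016. *Ms4a1* did not follow *Cr2* and *Fcer2a*, since it was high in *Igh* Δ890/+ library 2 and low in *Igh* P4V library 1.

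**Figure D3:**
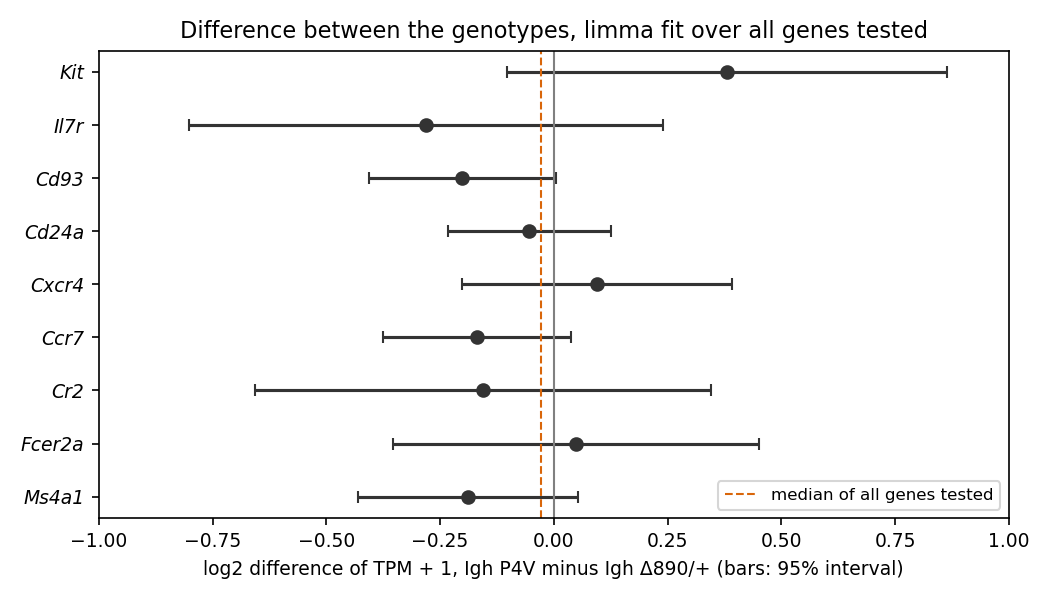
Log2 difference of TPM + 1 between *Igh* P4V (n = 3) and *Igh* Δ890/+ (n = 2) cells for each stage marker, with bars for the 95% interval of the limma fit over 11681 genes, a grey line at 0 and a dashed line at the median of all genes tested (-0.03). Every bar reaches past 0, the one of *Cd93* ending at 0.00, and the bars of *Il7r*, *Kit* and *Cr2* are the widest.

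A list of 15 further genes of mature B cells varied between libraries of the same genotype as *Cr2* and *Fcer2a* did. Of the 15, 14 were higher in *Igh* Δ890/+ library 1 than in library 2, as were 5976 of the 11681 genes tested, and 14 were higher in *Igh* P4V library 1 than in library 3, as were 5971. *Ighd*, the heavy-chain constant region of IgD, was at 381 and 229 TPM in *Igh* Δ890/+ and at 273, 237 and 216 TPM in *Igh* P4V cells. It was thus present in every library, beside *Ighm* at 15339 to 19530 TPM, although the gate took IgD- cells. *H2-Aa*, an MHC class II chain, was at 1457 and 865 TPM in *Igh* Δ890/+ and at 1223, 998 and 821 TPM in *Igh* P4V cells.

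Between the genotypes none of these 15 genes passed the test, and 2 had an unadjusted limma p under 0.05, as had 4.47% of all genes tested. Their median log2 difference was -0.17, that of the 9 stage markers was -0.15 and that of all genes tested was -0.03. The median of the 15 genes vanished without *Igh* Δ890/+ library 1 (0.0062). It was -0.071 without *Igh* P4V library 3, -0.25 without *Igh* P4V library 1 and -0.30 without *Igh* Δ890/+ library 2. The estimate was below 0 for 14 of the 15 and for 6 of the 9 stage markers, and for 7088 of all 11681 genes tested. The other most abundant mature genes were *Klf2*, a transcription factor of B cell exit and quiescence (1078 to 1392 TPM), and *Tnfrsf13c*, the BAFF receptor (1110 to 1198 TPM).

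**Figure D4:**
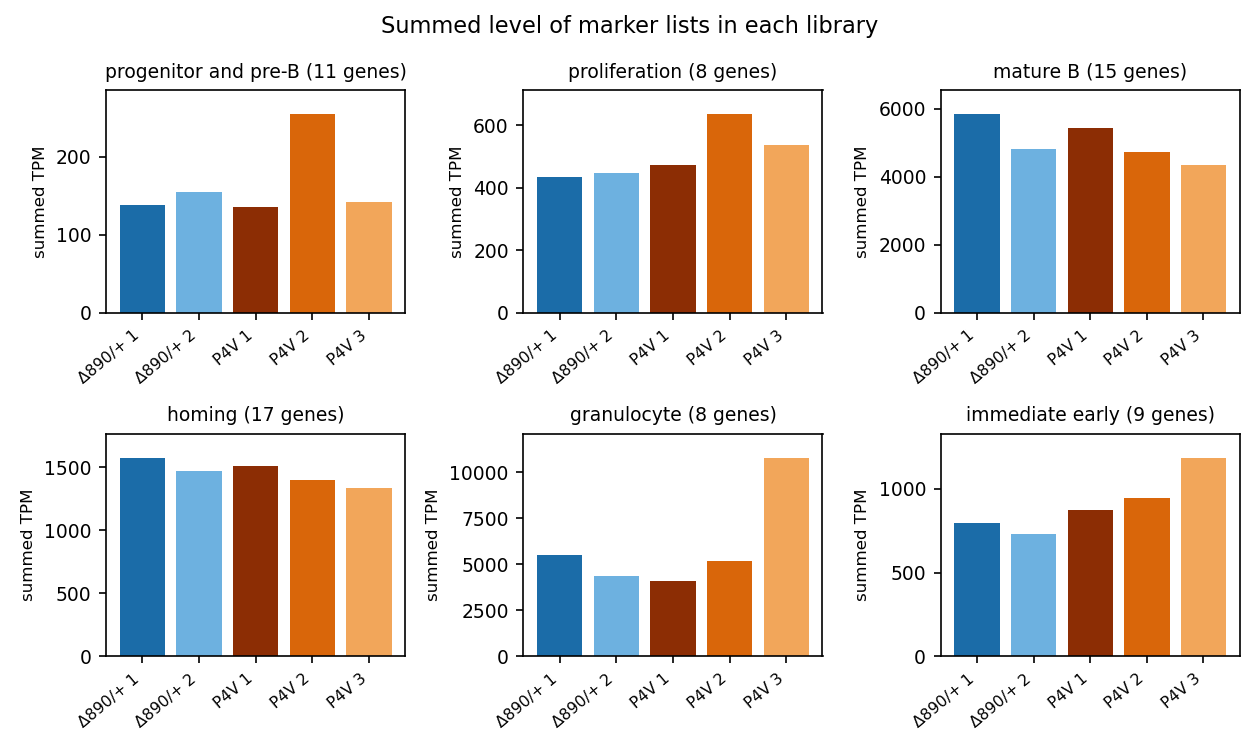
Summed TPM of 6 marker lists in each library, 1 bar per library, with axes from 0. *Igh* P4V library 2 is highest for the progenitor and pre-B list (254 TPM against 135 to 155) and the proliferation list (635 against 433 to 537), *Igh* P4V library 3 for the granulocyte list (10794 against 4108 to 5510) and the immediate early and stress list (1184 against 727 to 944), and *Igh* Δ890/+ library 1 for the mature B list (5835 against 4350 to 5428).

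Genes that act with the 9 markers were also measured. Of 28 listed partners, signal transducers and ligands, 25 could be tested and none passed, with a median log2 difference of -0.05 (-0.031 without *Igh* P4V library 3). *Gnai2*, the inhibitory G protein of chemokine receptors (1967 to 2129 TPM), and *Grk2*, a kinase that desensitises them (1136 to 1214 TPM), were among the most abundant. *Il2rg*, the common γ chain that pairs with the interleukin-7 receptor, was at 235 to 301 TPM, and *Cd81*, a tetraspanin that partners CD21, at 266 to 298 TPM. The ligands were near absent. *Kitl*, which encodes stem cell factor, was listed at 0 in *Igh* Δ890/+ library 2 and reached 0.13 TPM, *Il7* was at 0.03 to 0.20 TPM and *Cxcl12* at 1.67 to 4.12 TPM.

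The libraries held 24603449 to 26842734 recovered reads each. The 10 pan-B genes of the lists summed to 35523 to 41179 TPM, none passed the test, and *Ighm*, *Cd79a* (9495 to 10845 TPM) and *Cd79b* (5575 to 6035 TPM) led them, so that markers of the labelled B cells were abundant in all 5. T cell genes summed to 8.27 to 16.6 TPM and NK cell genes to 12.95 to 17.005 TPM, whereas granulocyte genes took 0.41 to 1.08% of all TPM and the erythroid gene *Alas2* was at 362 to 419 TPM. Monocyte and macrophage genes summed to 368 to 680 TPM, with the highest sum in *Igh* P4V library 3. Plasma cell genes summed to 325 to 520 TPM, with the lowest sum in *Igh* P4V library 3. None of the 6 passed the test. All 6 estimates were above 0, as were 4593 of the 11681 genes tested. *Xbp1* and *Irf4*, which had the highest means of the list, had log2 differences of 0.04 and 0.06. The largest estimate was that of *Jchain*, the joining chain of secreted IgM and IgA. It was at 65.6 and 32.6 TPM in *Igh* Δ890/+ and 185, 181 and 39.1 TPM in *Igh* P4V cells (log2 difference 1.23, limma adjusted p = 0.893). Of the 140 genes of the 19 other lists that could be tested, none passed the test by either limma or limma-voom, and 13 had an unadjusted limma p under 0.05, as had 4.47% of all genes tested. The only gene tested with an adjusted p under 0.05 was *Ighv1-82*, a VH gene named after its values were seen, which was higher in *Igh* P4V cells (log2 difference 2.07, limma adjusted p = 0.048). That call was lost in 8 of the 14 alternatives that gave it a value, with adjusted p-values from 0.010 to 0.249 and log2 differences from 1.91 to 2.17. Transcripts of both sexes were present in every library, with *Xist*, made from the inactive X chromosome, at 34.2 and 25.6 TPM in *Igh* Δ890/+ and 18.6, 18.3 and 2.999 TPM in *Igh* P4V cells, and the Y-linked *Eif2s3y* at 11.2 and 19.6 TPM against 17.6, 25.8 and 38.5 TPM. *Xist* was thus lower in every *Igh* P4V library than in both *Igh* Δ890/+ libraries, and the part of sex in any value above was not tested.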

How the data were processed

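Polyadenylated RNA of ex vivo-sorted IgMb immature B cells was used from 5 libraries, grouped by the labels. Libraries were made with random hexamers and sequenced as single reads. The authors removed ribosomal reads, aligned with TopHat, kept unique reads by Picard, counted them with featureCounts 1.5.0 over a gene set with added immunoglobulin genes, and deposited TPM values, which have the same sum in every library. The submitters' processing notes list mm9 and mm10, without saying which was used for these values. Second-strand synthesis used dUTP, but whether strand was kept in the library and used in counting is not given in the sources used here, so that values of overlapping and antisense genes are uncertain. The 48 VDJ-seq libraries and 6 other samples were not used here.

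The TPM of a gene were whole multiples of the worth of 1 read in 99.98% of 16643 genes (tolerance 1e-06). The smallest such whole numbers were taken as reads, which are lower bounds, with library totals of 24603449 to 26842734. *Cd24a* had 52355 or more of them on 10188 distinct starts (both strands of its 5094-base span on NCBIM37), so that the values were not limited to 1 read per start. Poisson intervals (95%) cover counting error only.

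Genes averaging 1 TPM or more were fitted as log2(TPM + 1) with limma 3.58.1 (R 4.3.3, eBayes with trend), adjusted by the Benjamini-Hochberg method over all 11681 genes with a threshold of 0.05. The deposited unit was TPM, so that no count model was the main test. The fit was tested on simulated data. The members and the gene lists were chosen with earlier results of these data known. From each other list the 3 genes of highest mean and those that passed the test were named, with markers at 0, and some listed genes are not reported here by name. *Igll1*, *Dntt*, *Rag1*, *Rag2*, *Il2ra*, *Cd34*, *Ighd*, *Il2rg*, *Cd81*, *Il7*, *Cxcl12* and *Mcpt8* were named after their values were seen where that rule did not take them. Of the listed genes, 17 were found by a suffixed entry, 3 by an older symbol and 5 under no single entry. Alternatives were 2 pseudocounts, 2 filters, 2 scalings, removal of immunoglobulin genes, no variance trend and leaving out each library, and after seeing the data limma-voom on the reads and centring on pan-B genes.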

Additional observations from a re-analysis of the deposited data

How the results depend on the processing

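No stage marker passed the test under any of the 15 alternatives, with adjusted limma p-values from 0.676 to 1 over 134 values. *Kit* had no value with a minimum of 5 TPM. The estimate kept its direction in 130 of the 134 values. The other 4 came from leaving out 1 library, which moved *Cr2* between -0.44 (without *Igh* Δ890/+ library 2) and 0.13 (without library 1), *Fcer2a* between -0.17 (without *Igh* Δ890/+ library 2; -0.05 without *Igh* P4V library 1) and 0.27 (without *Igh* Δ890/+ library 1), and *Cxcr4* between -0.020 (without *Igh* P4V library 3) and 0.20 (without library 1). *Kit* ranged from 0.15 with a pseudocount of 5 to 0.65 with limma-voom.

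Over all genes, the 1 gene called higher became 0 with a pseudocount of 0.1 or 5, with quantile normalization and without the variance trend, and 0 to 4 when 1 library was left out (0 without *Igh* Δ890/+ library 1 or *Igh* P4V library 1, 2 without *Igh* P4V library 2 and 4 without library 3). It is itself an immunoglobulin gene, so that removing these genes gave 0 by construction. With no filter, 15 genes were called higher and 51 lower, none of them a stage marker. The cause was not tested. No gene of the other lists was called under any of the 15 alternatives. Among the 9 markers depth was lowest for *Kit*, at 64 to 169 reads. No paired analysis was possible because the labels of these samples carry no replicate numbers.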
